A study of Mus musculus with 34 samples.

Results

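The type I interferon effector genes examined here are 10 transcripts whose proteins carry out the antiviral program that type I interferon switches on: Isg15, Ifit1, Ifit2, Ifit3, Rsad2, Ifitm1, Ifitm3, Bst2, Samd9l and Xaf1. They were chosen by gene name, and all 10 are among the 13108 rows of the deposited gene counts. All 10 had enough counts to be tested in each comparison below. The libraries were made from hematopoietic stem cells (HSCs, sorted as Lin- c-Kit+ Sca-1+ CD48- CD150+ bone marrow cells) of C57BL/6 mice, with 100 cells per library, and the amplification method was SMART-Seq2, which copies full-length polyadenylated RNA from few cells. Young mice, described in the study as 8 to 12 wk old, and aged mice of 1 yr were either Ythdf2 CTL (Ythdf2 fl/fl, the floxed allele without Cre) or Ythdf2 CKO (Ythdf2 fl/fl;Vav-iCre, in which the Cre acts throughout the blood lineages). All mice carried the floxed allele, which also places GFP after the start codon of Ythdf2, the gene of a protein that binds m6A-modified mRNA and promotes its decay. There were 4 young Ythdf2 CTL, 4 young Ythdf2 CKO, 4 aged Ythdf2 CTL and 5 aged Ythdf2 CKO mice, each with a library A and a library B.

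Type I interferons bind a receptor of the subunits IFNAR1 and IFNAR2, and the kinases JAK1 and TYK2 then activate a transcription factor complex that contains IRF9 and binds the interferon-stimulated response element in promoters. Among the genes switched on in this way, Isg15 encodes a ubiquitin-like modifier, the Ifit genes encode proteins that bind viral RNA and limit its translation, and Rsad2 encodes viperin, an enzyme that makes a chain-terminating nucleotide. Ifitm1 and Ifitm3 encode small membrane proteins that hinder the fusion of virus with the cell, and Bst2 encodes tetherin, which holds budding virions at the cell surface. Samd9l encodes an antiviral restriction factor that limits growth in blood cells, and Xaf1 encodes a protein that counters the inhibitor of apoptosis XIAP. In HSCs interferon is known for driving quiescent cells into cycle, and some of these genes, the Ifitm genes among them, are known to be expressed in stem cells without interferon.

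The promoters show which of the 10 genes carry the letters of the response element. In the RefSeq annotation of GRCm38.p6, windows from 250 bases before to 50 bases after the transcription start were found for all 10 genes, with 2 windows for Ifit2, and both strands were searched for GAAANNGAAA, the core of the element, with overlapping matches counted separately. The core was present in 6 of the 10 genes (60.0%), in 16 of 44 other genes of the type I interferon pathway (36.4%), in 3.91% of 10288 genes of the count table and in 3.44% of all 32851 promoter windows. There were 3 matches in Isg15, 2 each in Ifit1, Ifit3, Bst2 and Ifitm3, and 1 in Rsad2. The windows of Ifit2, Ifitm1, Samd9l and Xaf1 did not hold these letters. Stretches upstream of the start are printed below 5' to 3' on the strand of the gene, to show how the matches are arranged, with the matches in capitals. A match on the opposite strand is printed as its reverse complement.
Isg15, chr4:156200855-156200916, - strand, 98 to 37 bases before the start: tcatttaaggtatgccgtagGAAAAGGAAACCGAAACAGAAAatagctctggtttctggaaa
Ifit1, chr19:34640765-34640833, + strand, 124 to 56 bases before the start: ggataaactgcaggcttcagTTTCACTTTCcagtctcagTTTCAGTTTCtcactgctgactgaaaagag
Ifit3, chr19:34583353-34583436, + strand, 176 to 93 bases before the start: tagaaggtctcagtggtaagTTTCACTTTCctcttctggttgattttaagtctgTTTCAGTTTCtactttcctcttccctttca
Rsad2, chr12:26456543-26456592, - strand, 140 to 91 bases before the start: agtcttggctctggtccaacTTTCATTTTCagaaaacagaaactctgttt
Bst2, chr8:71537567-71537622, - strand, 150 to 95 bases before the start: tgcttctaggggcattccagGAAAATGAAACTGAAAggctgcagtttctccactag

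The 3 matches of Isg15 overlapped one another and began 78, 72 and 66 bases before the start, and those of Bst2 also overlapped and began 130 and 124 bases before it. The matches of Ifit1 began 104 and 85 bases before the start, those of Ifit3 156 and 122 bases, and that of Rsad2 120 bases. In Ifitm3 the matches lay 2 and 19 bases after the RefSeq start, so no upstream stretch is printed for it. A match describes the letters only, and binding was not measured in these libraries.

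**Figure D1:**
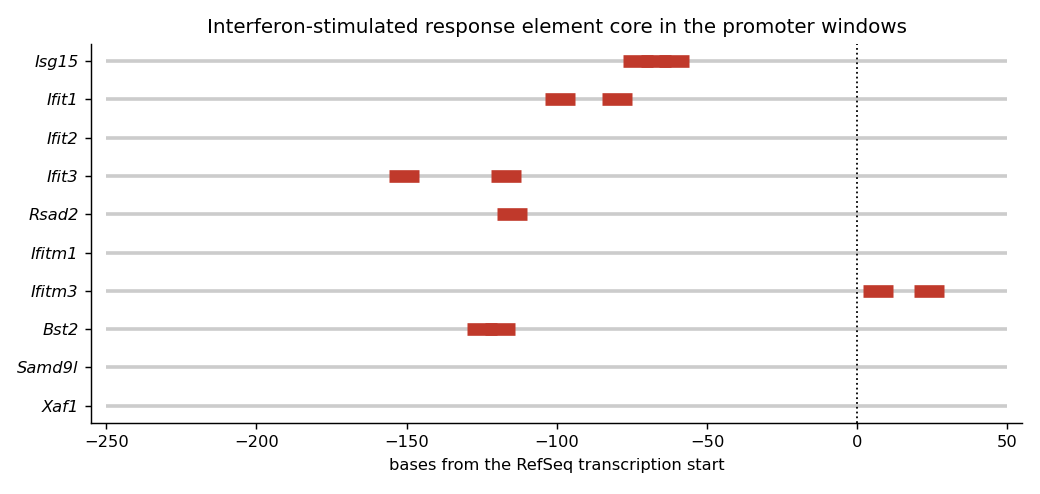
Positions of the response element core in the promoter windows of the 10 genes. The x axis gives the distance in bases from the RefSeq transcription start (dotted line), each grey line is 1 gene's window (the first window in the case of Ifit2), and each red block is a match on either strand. Matches lie before the start in Isg15, Ifit1, Ifit3, Rsad2 and Bst2 and after it in Ifitm3, and 4 genes have none.

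Levels are given as CPM, counts divided by the library size after TMM scaling, with libraries A and B of each mouse summed. Fold changes are given on the log2 scale with their standard error (SE), and p and adjusted p values named edgeR come from its quasi-likelihood test over mice, adjusted over all genes tested, so they measure the spread between mice. Totals per mouse ranged from 4715947 to 7171657 counts in young and from 2218618 to 10125624 in aged mice, and the smallest level the depth allowed, 3 counts, was between 0.292 and 1.22 CPM, counting error only. Library B of aged Ythdf2 CTL mouse 99, with 187034 counts, was left out, so this mouse had 1 library. Ythdf2 itself was at 108 ± 15.2 CPM in young Ythdf2 CTL and 56.0 ± 4.04 CPM in young Ythdf2 CKO mice (SD, n = 4 each). In aged mice 2 mice went against their labels. The mouse labelled aged Ythdf2 CKO 121 had 185.7 CPM of Ythdf2, above every mouse labelled aged Ythdf2 CTL, and in the mouse labelled aged Ythdf2 CTL 124 it was at 71.3 CPM, below every mouse labelled aged Ythdf2 CKO. Each aged fold change of the 10 transcripts is therefore also given without this pair. Reads of Y-linked genes were present in 3 of 4 young Ythdf2 CTL mice and in 1 mouse of each other group, apart from a trace in aged Ythdf2 CTL mouse 114, so genotype and sex were not balanced in young mice. All 10 HSC marker genes examined had reads in every group. Genotype moved with the summed level of 8 megakaryocyte markers, which was 572 to 948 CPM in young Ythdf2 CTL and 1100 to 3300 CPM in young Ythdf2 CKO mice, and 459 to 690 CPM in aged Ythdf2 CTL and 618 to 2250 CPM in aged Ythdf2 CKO mice. The largest share of this sum in young mice was that of Pf4 (296 to 635 CPM in young Ythdf2 CTL and 748 to 2750 CPM in young Ythdf2 CKO mice). In young mice 4 of the 8 were higher in every Ythdf2 CKO mouse, Gp9 was lower in every one (76.5 to 97.6 against 43.9 to 75.8 CPM) and 3 overlapped. Cd48, whose protein was used to exclude progenitors in the sort, was at 53.6 to 87.9 CPM in young Ythdf2 CTL, 97.9 to 106 CPM in young Ythdf2 CKO, 0.625 to 28.5 CPM in aged Ythdf2 CTL and 1.87 to 19.2 CPM in aged Ythdf2 CKO mice. On the other lists examined, Cd79b of the B cell markers (79.4 to 88.8 against 90.1 to 153 CPM) and Ly6a of the HSC markers (256 to 340 against 419 to 903 CPM) were also higher in every young Ythdf2 CKO mouse. In aged mice Pf4 was higher (178 to 284 against 290 to 1380 CPM) in every Ythdf2 CKO mouse. Mpo, a granulocyte marker, was lower in every one (8.37 to 80.5 against 0 to 6.23 CPM). Of 11526 genes tested in young mice, 309 were higher and 235 lower in every Ythdf2 CKO mouse. In aged mice these counts were 217 and 200 of 11961. The part of these markers in the results was not tested. In samples of 100 cells, fewer cells that express a gene and less RNA per cell cannot be told apart.

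Per kilobase of exon, the levels of the 10 transcripts differed widely. In young Ythdf2 CTL HSCs Ifitm3 was at 3140 ± 427 CPM per kb (SD, n = 4), Ifitm1 at 1270 ± 268 and Bst2 at 57.6 ± 11.6, and the mice did not overlap between neighbours in this order. Below them came Samd9l (22.4 ± 4.55 CPM per kb), Xaf1 (21.0 ± 6.75), Ifit1 (16.2 ± 10.1), Isg15 (13.6 ± 1.54), Ifit2 (10.5 ± 3.04), Rsad2 (7.44 ± 2.94) and Ifit3 (6.63 ± 6.40), and from Samd9l downward each neighbouring pair overlapped over the 4 mice. Ifitm3, Ifitm1, Bst2 and Samd9l held ranks 1 to 4 in all 4 groups, and Rsad2 and Ifit3 were among the lowest 3 in each. In aged Ythdf2 CTL HSCs Ifit3 was lowest, at 1.04 ± 1.03 CPM per kb, and Ifitm3 highest, at 1920 ± 204 (SD, n = 4 each).

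The comparison of genotypes in young mice asks whether loss of Ythdf2 alters the effector transcripts in HSCs. Of the 10 transcripts, 7 had a positive and 3 a negative log2 fold change, Ythdf2 CKO against Ythdf2 CTL, with a median of 0.46, where 49.9% of all 11526 genes tested had a fold change above 0 and their median was 0.00. Ifit1, Ifit3, Samd9l and Isg15 had the most positive fold changes, and Rsad2, Ifitm1 and Bst2 had negative ones. None passed the adjusted threshold in edgeR's quasi-likelihood test (background 0.174% of all genes, in either direction), 2 were higher at an unadjusted p below 0.05 (Ifit1 and Samd9l, background 4.26%), and in 1, Samd9l, the Ythdf2 CKO mice all lay above the Ythdf2 CTL mice (background 2.68%). With 1 mouse left out the count at an unadjusted p ranged from 1 to 4: it was 1 without Ythdf2 CKO mouse 2 or 3 or Ythdf2 CTL mouse 2 or 3, 3 without Ythdf2 CTL mouse 4 and 4 without Ythdf2 CKO mouse 4. DESeq2 over mice also called none of the 10 (background 0.669%). A likelihood ratio test that treats libraries A and B of a mouse as separate replicates, although they share the mouse, called Samd9l (background 0.85%).

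In aged mice the same comparison gave 8 positive and 2 negative fold changes with a median of 0.36, where 49.7% of the 11961 genes tested were above 0 and their median was 0.00. Ifit3, Isg15 and Ifit2 had the most positive fold changes, and Ifitm1 and Rsad2 were again negative. None passed the adjusted threshold in edgeR's quasi-likelihood test (background 0%), in DESeq2 (background 0.872%) or in the likelihood ratio test over libraries (background 3.73%), and 2, Ifit2 and Ifit3, were higher at an unadjusted p below 0.05 (background 4.45%). The groups overlapped in all 10 transcripts (3.49% of all genes did not overlap in one direction or the other). Without mice 121 and 124 the median was 0.17, and 0 of the 10 were higher at an unadjusted p below 0.05. With 1 mouse left out this count ranged from 0 to 3: it was 0 without mouse 121, 1 without mouse 65, 78, 99 or 114, and 3 without mouse 81.

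Whether the genotype effect differed between ages was tested by an interaction term over all 17 mice. It was called for none of the 10 transcripts by edgeR's quasi-likelihood test (background 0%), nor by DESeq2 (background 0.0243%) or the likelihood ratio test (background 0.0256%). In the quasi-likelihood test 0 of 10 had an unadjusted p below 0.05 (background 4.76%). The smallest unadjusted p was that of Samd9l, with a difference in log2 fold change, aged minus young, of -0.61 (SE 0.34, edgeR p = 0.0886, adjusted p = 0.999). These effects were therefore not shown to differ between ages.

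**Figure D2:**
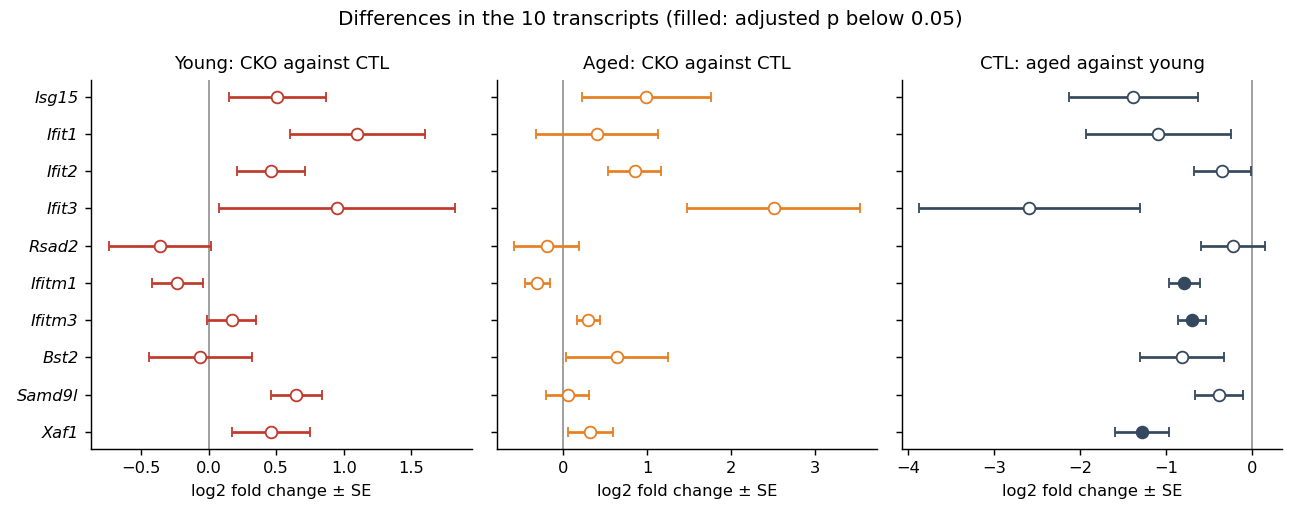
Log2 fold changes of the 10 transcripts with their standard errors (x axis) in young and aged Ythdf2 CKO against Ythdf2 CTL mice and in aged against young Ythdf2 CTL mice, from edgeR's quasi-likelihood fit over mice. Filled points have an adjusted p below 0.05. The filled points are Ifitm1, Ifitm3 and Xaf1 in the comparison of aged with young Ythdf2 CTL mice, in which all 10 points lie below 0. The widest bars are those of Ifit3.

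The comparison of ages in Ythdf2 CTL mice gave the same direction for the whole set. All 10 had a negative log2 fold change, aged against young, with a median of -0.80, where 44.3% of the 11633 genes tested were below 0 and their median was 0.11. Ifitm1, Ifitm3 and Xaf1 passed the adjusted threshold, all lower (3 of 10, background 4.59%), and these and Isg15 did not overlap between ages (4 of 10, background 10.5%). The library descriptions in the labels carry 1 identifier in all young and another in all aged libraries, so age and whatever that identifier marks cannot be told apart. Of 3 T and NK cell markers Nkg7 also moved with age, from 395 to 528 CPM in young to 142 to 322 CPM in aged Ythdf2 CTL mice. In these mice Cd7 was at 0 to 4.00 CPM and Il7r at 0 to 0.104 CPM. Of 4 B cell markers Cd79b moved, from 79.4 to 88.8 CPM to 32.9 to 75.0 CPM, while Vpreb1 was at 1.88 to 13.7 and 0 to 2.41 CPM, Cd79a at 0 and 0 to 1.22 CPM, and Ms4a1 at 0 in all of these mice. Of the other lists examined, Cd48 (given above), Lyz2 (738 to 812 in young and 382 to 688 CPM in aged mice), Pf4 (296 to 635 and 178 to 284 CPM) and Hba-a2 (0.22 to 1.09 and 0 CPM, near the floor, with 1 to 6 counts in the young mice) were also lower in every aged mouse. Vwf (9.54 to 25.7 and 40.8 to 94.7 CPM) and Tcf4 (72.1 to 88.8 and 89.4 to 145 CPM) were higher in every one. Of all 11633 genes tested, 10.5% were lower and 7.25% higher in every aged mouse. The part of these markers in the result was not tested. The calls depended on single young mice, since without young Ythdf2 CTL mouse 1, 3 or 4 none of the 10 was called, and 2 were called without aged mouse 99 or 114. Without young mouse 1, 3 or 4 the calls over all genes also fell, from 921 to 64, 129 and 48. With 1 mouse left out the fold changes of Ifitm1, Ifitm3 and Xaf1 stayed negative, and their ranges are given below. Without mouse 124 there were again 3 calls.

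Isg15 (ENSMUSG00000035692), the gene of the ubiquitin-like modifier, lies on chromosome 4 from 156199424 to 156200818 of GRCm38 on the - strand. In young Ythdf2 CTL mice 1 to 4 it was at 11.2, 11.3, 9.11 and 9.38 CPM, and in young Ythdf2 CKO mice 1 to 4 at 11.9, 16.7, 19.2 and 10.3 CPM. Only Ythdf2 CKO mouse 4 fell within the range of the Ythdf2 CTL mice, and the log2 fold change was 0.51 (SE 0.36, edgeR adjusted p = 0.882). In aged Ythdf2 CTL mice 65, 99, 114 and 124 it was at 5.32, 4.08, 5.94 and 0.284 CPM, and in aged Ythdf2 CKO mice 78, 81, 94, 121 and 122 at 5.73, 11.4, 5.25, 12.3 and 4.02 CPM. Mouse 124 had 2 counts of Isg15, below the floor, and the log2 fold change of 0.99 (SE 0.77, edgeR adjusted p = 0.712) was 0.36 without mice 121 and 124. Every aged Ythdf2 CTL mouse lay below every young one (exact permutation test over mice, two-sided, p = 0.0286, which is the minimum for 4 against 4), with a log2 fold change of -1.38 (SE 0.75) that did not pass the adjusted threshold (edgeR adjusted p = 0.264).

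Ifit1 (ENSMUSG00000034459; chromosome 19, 34640871 to 34650009, + strand), whose protein recognizes the 5' end of foreign RNA, had the most positive fitted fold change in young mice. It was at 67.9, 6.19, 42.2 and 55.8 CPM in young Ythdf2 CTL mice 1 to 4, and at 46.1, 81.0, 166.8 and 72.8 CPM in young Ythdf2 CKO mice 1 to 4. The groups overlapped, with Ythdf2 CTL mouse 2 far below and Ythdf2 CKO mouse 3 far above the other young mice. The log2 fold change was 1.10 (SE 0.50, edgeR p = 0.0419, adjusted p = 0.675), and the exact permutation test over mice gave p = 0.143. Without Ythdf2 CKO mouse 3 the log2 fold change was 0.64. In aged mice Ifit1 was at 38.3, 21.6, 19.9 and 0.284 CPM in Ythdf2 CTL mice 65, 99, 114 and 124, and at 24.8, 32.6, 11.5, 42.4 and 20.6 CPM in Ythdf2 CKO mice 78, 81, 94, 121 and 122. Here the direction rested on the mouse labelled Ythdf2 CTL 124, with 2 counts: the log2 fold change was 0.40 (SE 0.73, edgeR adjusted p = 0.902) with all mice, -0.03 without mouse 124 and -0.26 without mice 121 and 124.

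Ifit2 (ENSMUSG00000045932; chromosome 19, 34550694 to 34576419, + strand), a relative of Ifit1 that has also been linked to apoptosis, lies in the same cluster of genes. Its levels were 44.2, 41.0, 25.6 and 54.4 CPM in young Ythdf2 CTL mice 1 to 4 and 72.1, 48.8, 61.5 and 44.1 CPM in young Ythdf2 CKO mice 1 to 4. The log2 fold change was 0.46 (SE 0.25, edgeR adjusted p = 0.762), with overlapping groups. Aged Ythdf2 CTL mice 65, 99, 114 and 124 had 28.04, 46.5, 20.4 and 34.5 CPM, and aged Ythdf2 CKO mice 78, 81, 94, 121 and 122 had 58.4, 57.6, 46.9, 91.4 and 34.3 CPM. All but mouse 122 of the aged Ythdf2 CKO mice were above every aged Ythdf2 CTL mouse, and the log2 fold change was 0.85 (SE 0.32, edgeR p = 0.0205, adjusted p = 0.413; two-sided exact permutation test, p = 0.0476, smallest possible 0.0159). Without mice 121 and 124 it was 0.64 (edgeR p = 0.0658).

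Ifit3 (ENSMUSG00000074896; chromosome 19, 34583531 to 34588731, + strand), of the same gene cluster, differed most between the libraries of a mouse. It had 21.8, 0, 4.05 and 20.5 CPM in young Ythdf2 CTL mice 1 to 4 and 3.77, 14.9, 51.0 and 18.4 CPM in young Ythdf2 CKO mice 1 to 4. The absence of reads in Ythdf2 CTL mouse 2 held in both of its libraries, and the log2 fold change of 0.95 had a standard error of 0.87 (edgeR adjusted p = 0.899). Without Ythdf2 CKO mouse 3 the log2 fold change was 0.12. With the Y-linked covariate, the summed level of these genes, it was -0.25. In aged Ythdf2 CTL mice 65, 99, 114 and 124 it was at 4.07, 0.816, 2.41 and 0 CPM, and in aged Ythdf2 CKO mice 78, 81, 94, 121 and 122 at 13.0, 7.69, 0.778, 19.2 and 13.2 CPM. All aged Ythdf2 CKO mice except mouse 94 lay above every aged Ythdf2 CTL mouse. The log2 fold change was 2.51 (SE 1.03, edgeR p = 0.0286, adjusted p = 0.435), the exact permutation test gave p = 0.0794, and without mice 121 and 124 the log2 fold change was 1.76 (edgeR p = 0.0700). Ifit3 and Ifit1 have close paralogs, Ifit3b and Ifit1bl1, and how the counting treated reads that fit both members of such a pair is not given in the sources used here.

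Rsad2 (ENSMUSG00000020641; chromosome 12, 26442746 to 26456452, - strand), the viperin gene, had negative fold changes between genotypes at both ages, neither of them called. In young mice it was at 47.0, 18.4, 25.6 and 38.1 CPM in Ythdf2 CTL and at 9.53, 30.1, 37.9 and 22.0 CPM in Ythdf2 CKO mice 1 to 4, a log2 fold change of -0.36 (SE 0.38, edgeR adjusted p = 0.916). With 1 young mouse left out it ranged from -0.64, without Ythdf2 CKO mouse 3, to -0.09, without Ythdf2 CKO mouse 1. In aged mice Rsad2 was at 31.5, 22.4, 17.8 and 38.1 CPM in Ythdf2 CTL mice 65, 99, 114 and 124, and at 17.7, 25.9, 10.7, 42.8 and 21.6 CPM in Ythdf2 CKO mice 78, 81, 94, 121 and 122. The fold change was -0.20 on the log2 scale (SE 0.39, edgeR adjusted p = 0.909) and -0.35 without mice 121 and 124, and the groups overlapped at both ages. The mouse labelled aged Ythdf2 CTL 124, which had 2 counts each of Isg15 and Ifit1 and none of Ifit3, had the highest Rsad2 level of its group.

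Ifitm1 and Ifitm3 were the most abundant of the 10 and lie close to each other on chromosome 7, Ifitm1 (ENSMUSG00000025491) from 140967221 to 140969825 on the + strand and Ifitm3 (ENSMUSG00000025492) from 141009586 to 141010770 on the - strand. Ifitm1 was at 1771, 1066, 1308 and 1403 CPM in young Ythdf2 CTL mice 1 to 4 and at 1217, 987, 1639 and 856 CPM in young Ythdf2 CKO mice 1 to 4, a log2 fold change of -0.23 (SE 0.19, edgeR adjusted p = 0.894). In aged mice it was at 659, 810, 899 and 834 CPM in Ythdf2 CTL mice 65, 99, 114 and 124 and at 622, 580, 782, 632 and 601 CPM in Ythdf2 CKO mice 78, 81, 94, 121 and 122. Mouse 94 was the aged Ythdf2 CKO mouse within the Ythdf2 CTL range, and the log2 fold change was -0.31 (SE 0.15, edgeR adjusted p = 0.525; two-sided exact permutation test, p = 0.0317) and -0.30 without mice 121 and 124. Each Ifitm1 level in aged Ythdf2 CTL mice was below each in young ones, a log2 fold change of -0.79 (SE 0.18, edgeR adjusted p = 0.0262).

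Ifitm3, the best known restriction factor of its family, had positive fold changes between genotypes where those of Ifitm1 were negative, except without young Ythdf2 CKO mouse 3 and with the Y-linked covariate. Young Ythdf2 CTL mice 1 to 4 had 2353, 1778, 1997 and 2376 CPM and young Ythdf2 CKO mice 1 to 4 had 1797, 2488, 3387 and 1856 CPM, a log2 fold change of 0.17 (SE 0.18, edgeR adjusted p = 0.916) that was -0.05 without Ythdf2 CKO mouse 3 and -0.02 with the Y-linked covariate. Aged Ythdf2 CTL mice 65, 99, 114 and 124 had 1383, 1111, 1421 and 1305 CPM and aged Ythdf2 CKO mice 78, 81, 94, 121 and 122 had 1819, 1379, 1636, 1527 and 1597 CPM. Mouse 81 alone of the aged Ythdf2 CKO mice fell within the Ythdf2 CTL range, and the log2 fold change was 0.30 (SE 0.14, edgeR adjusted p = 0.50; exact permutation test, p = 0.0476) and 0.29 without mice 121 and 124. The lower level in aged than in young Ythdf2 CTL mice, without overlap, had a log2 fold change of -0.70 (SE 0.16, edgeR adjusted p = 0.0248). Reads shared among similar Ifitm family members could have been split between them.

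Bst2 (ENSMUSG00000046718; chromosome 8, 71534255 to 71537456, - strand), the tetherin gene, fell into high and low mice that cut across genotype and age. In young Ythdf2 CTL mice 1 to 4 it was at 55.8, 43.3, 43.8 and 65.2 CPM and in young Ythdf2 CKO mice 1 to 4 at 65.5, 59.3, 11.2 and 63.4 CPM. The aged Ythdf2 CTL mice 65, 99, 114 and 124 had 12.9, 6.94, 54.2 and 43.3 CPM, and the aged Ythdf2 CKO mice 78, 81, 94, 121 and 122 had 28.4, 70.4, 85.0, 11.2 and 31.2 CPM. The 4 lowest mice, young Ythdf2 CKO 3, aged Ythdf2 CTL 65 and 99 and aged Ythdf2 CKO 121, lay between 6.94 and 12.9 CPM, and the next mouse was at 28.4 CPM. In the 3 of these with both libraries, library A and library B gave 13.4 and 7.12 CPM in young Ythdf2 CKO mouse 3, 8.69 and 15.9 CPM in aged Ythdf2 CTL mouse 65 and 11.2 and 11.04 CPM in aged Ythdf2 CKO mouse 121. The log2 fold change between genotypes was -0.06 (SE 0.38, edgeR adjusted p = 0.988) in young mice, 0.28 without Ythdf2 CKO mouse 3, and 0.64 (SE 0.61, edgeR adjusted p = 0.786) in aged mice, 1.09 without mice 121 and 124. Bst2 is also known as a surface marker of plasmacytoid dendritic cells. Of 8 markers of these cells Siglech and Klk1 were not analysed here, Ly6d, Cox6a2 and Ccr9 were at 0 to 1.19 CPM, and the summed level of the 6 present was 106 to 149 CPM in young Ythdf2 CTL, 111 to 145 in young Ythdf2 CKO, 131 to 261 in aged Ythdf2 CTL and 127 to 161 in aged Ythdf2 CKO mice, most of it from Tcf4 and Runx2. Their part in the Bst2 levels was not tested.

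Samd9l (ENSMUSG00000047735; chromosome 6, 3372257 to 3399572, - strand) was the transcript whose young groups did not overlap. It was at 138.4, 84.8, 130.1 and 132.7 CPM in young Ythdf2 CTL mice 1 to 4 and at 178.9, 177.7, 252.7 and 151.4 CPM in young Ythdf2 CKO mice 1 to 4. All Ythdf2 CKO mice were higher (exact permutation test over mice, two-sided, p = 0.0286), and the log2 fold change was 0.65 (SE 0.19, edgeR p = 0.00400, adjusted p = 0.342), between 0.48 and 0.75 with 1 mouse left out. In the likelihood ratio test over libraries it was 0.62 (adjusted p = 0.0404 from that test, which treats both libraries of a mouse as replicates). Over all alternatives the adjusted p ranged from 0.0404 to 0.698. At 1 yr the values were 153.3, 60.0, 75.9 and 76.7 CPM in Ythdf2 CTL mice 65, 99, 114 and 124 and 101.7, 88.8, 72.3, 105.0 and 103.6 CPM in Ythdf2 CKO mice 78, 81, 94, 121 and 122. Mouse 65 was above all others of its age, and the log2 fold change was 0.05 (SE 0.26, edgeR adjusted p = 0.969), 0.41 without mouse 65 and -0.09 without mice 121 and 124.

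Xaf1 (ENSMUSG00000040483; chromosome 11, 72301629 to 72313733, + strand) had the lowest fold change of the called transcripts between ages. Young Ythdf2 CTL mice 1 to 4 had 132.7, 60.8, 86.3 and 114.7 CPM and young Ythdf2 CKO mice 1 to 4 had 102.0, 126.1, 226.3 and 83.9 CPM, with a log2 fold change of 0.46 (SE 0.29, edgeR adjusted p = 0.839) that was 0.08 without Ythdf2 CKO mouse 3. Aged Ythdf2 CTL mice 65, 99, 114 and 124 had 44.9, 47.7, 47.3 and 21.7 CPM and aged Ythdf2 CKO mice 78, 81, 94, 121 and 122 had 49.1, 53.2, 46.3, 56.4 and 46.1 CPM. No aged mouse of either genotype reached the level of any young mouse. The log2 fold change between aged genotypes was 0.32 (SE 0.27, edgeR adjusted p = 0.745), 0.05 without mice 121 and 124, and that of aged against young Ythdf2 CTL mice was -1.28 (SE 0.31, edgeR adjusted p = 0.0292).

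**Figure D3:**
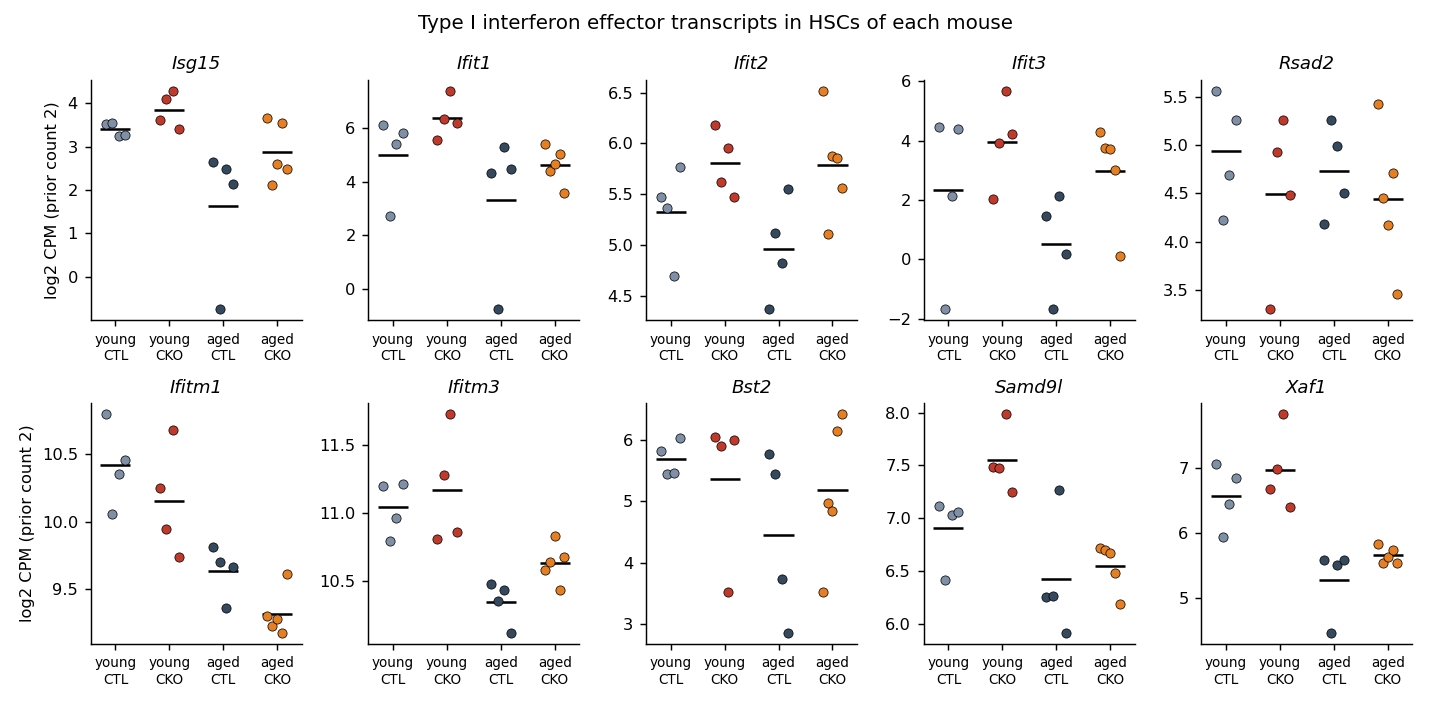
Levels of the 10 transcripts in each mouse, as log2 CPM with a prior count of 2 (y axis), in young and aged Ythdf2 CTL and Ythdf2 CKO mice (x axis). Points are mice and lines are group means. Samd9l is the transcript whose young genotypes do not overlap, and Bst2 has 4 mice far below the others, in 3 of the 4 groups.

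Mice differed in how many effector transcripts they had at high levels. Young Ythdf2 CKO mouse 3 was the highest of all 17 mice in Ifit1 (166.8 CPM), Ifit3 (51.0), Isg15 (19.2), Ifitm3 (3387), Samd9l (252.7) and Xaf1 (226.3), and its Bst2 level was among the 4 lowest. The same mouse had the highest Pf4 (2753 CPM) and, of 5 endothelial markers, the highest Kdr (34.7 CPM, at most 12.2 in any other mouse) and Sele (10.7 CPM, at most 0.289 in any other mouse). It was not the highest in Cdh5, Pecam1 or Emcn. Their part in its levels was not tested. Without this mouse the median log2 fold change of the 10 in young mice was 0.20, against 0.46 with it. The mouse labelled aged Ythdf2 CTL 124 was the lowest of all 17 in Isg15, Ifit1 and Xaf1, and had no Ifit3 reads, as did young Ythdf2 CTL mouse 2, while only 1 mouse of its group had more Ifit2, Ifitm1 or Samd9l. The mouse labelled aged Ythdf2 CKO 121 was the highest aged mouse in Ifit1, Ifit2, Ifit3, Isg15, Rsad2 and Xaf1.

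Over the 17 mice, with each level centred on its group mean, 33 of the 45 pairs of transcripts had a correlation above 0 and 14 had one above 0.5. The closest pairs were Ifit1 with Xaf1 (Pearson r = 0.83), with Isg15 (0.80) and with Ifit3 (0.79). Xaf1 had the highest median correlation with the other 9 (0.59), followed by Ifit3 (0.54) and Samd9l (0.50). Ifit2, in the same gene cluster as Ifit1 and Ifit3, had a median of 0.04. Bst2 correlated negatively with all 9 others (median r = -0.36), and of the 11 negative pairs 2 did not involve Bst2. These values are descriptions: the transcripts of a mouse share its libraries, its depth and its scaling, and few mice carry the extremes.

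**Figure D4:**
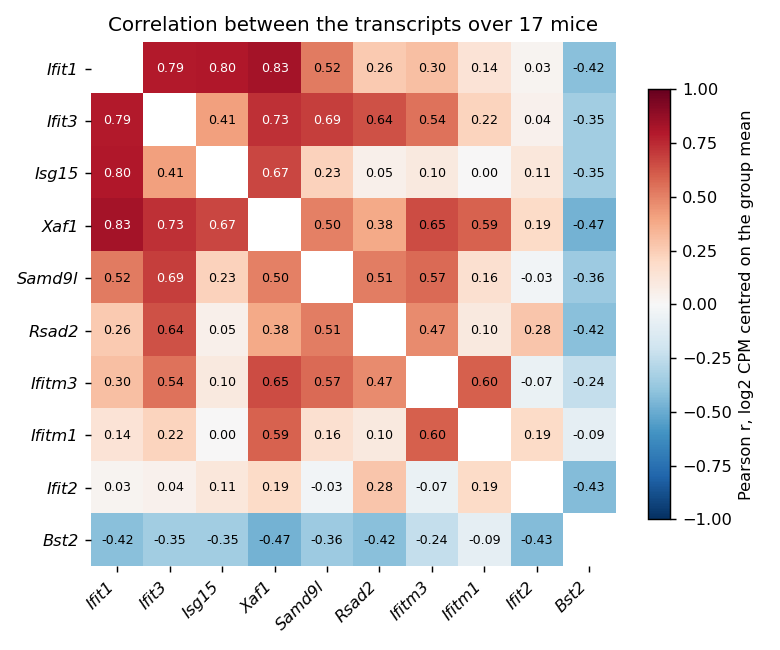
Pearson correlation of log2 CPM between each pair of transcripts over 17 mice, centred on the mean of each group, with red above 0 and blue below. The highest values, up to 0.83, are those of Ifit1 with Xaf1, Isg15 and Ifit3, and the row of Bst2 is negative throughout.

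The agreement between library A and library B, each of 100 cells of the same mouse, differed by transcript. Samd9l and Ifitm3 had the smallest median differences over the 16 mice with both libraries, 0.17 and 0.26 on the log2 scale, and Ifit3 the largest, 1.30. The largest single difference was also in Ifit3, in young Ythdf2 CTL mouse 4, with 37.9 CPM (117 counts) in library A and 0.366 CPM (1 count) in library B, a log2 difference of 5.31. In aged Ythdf2 CKO mice Ifit3 was at 0.538 and 21.8 CPM in libraries A and B of mouse 78 and at 1.42 and 28.1 CPM in those of mouse 81, whereas mice 121 and 122 had the higher value in library A (28.3 against 5.52 CPM, and 25.9 against 2.65 CPM). Centred on group means, the correlation between libraries was 0.91 for Bst2, 0.74 for Ifit1, 0.69 for Samd9l and 0.59 for Isg15, but 0.16 for Ifit3 and -0.13 for Ifit2 (16 mice, no test). The 3 low Bst2 mice with both libraries in use were low in each of them, while in 4 of the 5 aged Ythdf2 CKO mice most Ifit3 reads came from 1 library. On the log2 scale the SD within a mouse exceeded that between mice for Ifit2 (0.74 against 0.43), Xaf1 (0.59 against 0.48), Ifitm1 (0.34 against 0.29) and Ifitm3 (0.26 against 0.25), and was below it for the others, such as Bst2 (0.36 against 1.02) and Ifit1 (0.82 against 1.63). For Rsad2 the 2 were close (0.68 against 0.71). The SD within a mouse is that of single libraries, and the SD between mice is that of both libraries summed. The SD between mice therefore still holds part of the spread between libraries.

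**Figure D5:**
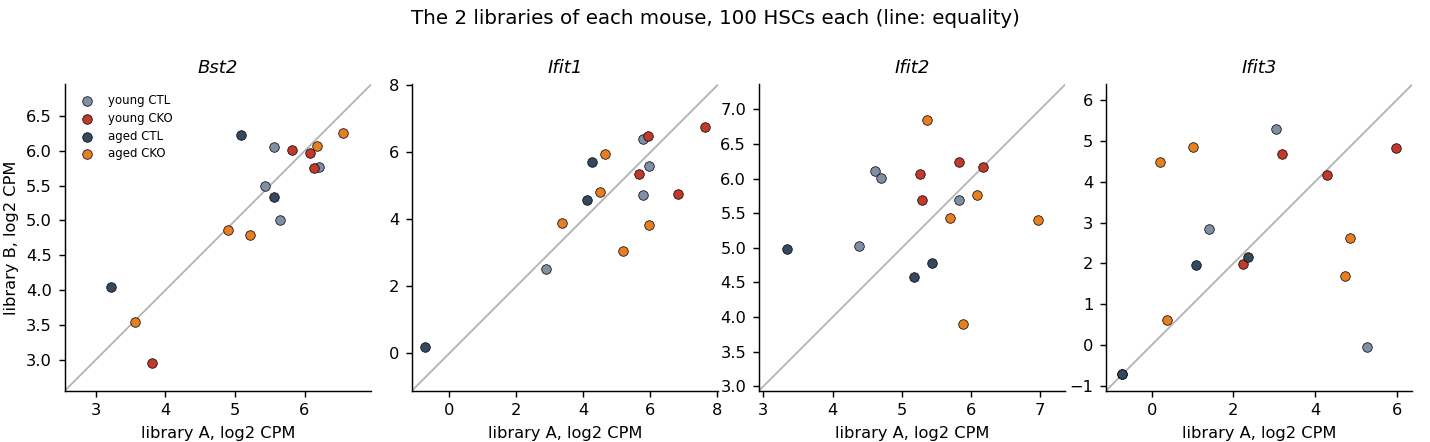
Level in library A (x axis) against library B (y axis) of each of 16 mice, as log2 CPM, for 4 transcripts, with points colored by group and a line of equality. Bst2 lies along the line with a correlation of 0.91, whereas Ifit2 and Ifit3 scatter widely.

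The other genes of the pathway were examined as receptor and signal genes, feedback genes and other effectors. Pairs of levels joined by "to" for these genes are group means, Ythdf2 CTL before Ythdf2 CKO or young before aged. In young mice 17 of 46 other effectors tested (37.0%, background 4.26%) were higher in Ythdf2 CKO mice at an unadjusted p below 0.05 and none was lower, 38 had a fold change above 0, and 11 (23.9%, background 2.68%) had groups that did not overlap, all higher, with a median log2 fold change of 0.45. None passed the adjusted threshold in edgeR's quasi-likelihood test. The count was 13 with the Y-linked covariate and between 13 and 18 with 1 mouse left out. Those with the smallest p were Rtp4, an effector that restricts flaviviruses (158 to 326 CPM, log2 fold change 1.05, edgeR adjusted p = 0.284), Samhd1, which hydrolyzes dNTPs (66.3 to 112 CPM, 0.76, edgeR adjusted p = 0.286), and Lgals3bp, a secreted glycoprotein (244 to 356 CPM, 0.55, edgeR adjusted p = 0.305). Among 8 receptor and signal genes, Irf7, which amplifies interferon production, was at 48.9 CPM in Ythdf2 CTL and 113 CPM in Ythdf2 CKO mice, a log2 fold change of 1.21 (SE 0.28, edgeR p = 0.000492, adjusted p = 0.123), and it was the 1 of the 8 at an unadjusted p below 0.05. Of the 3 feedback genes 1 was higher at that threshold, Socs3, an inhibitor of cytokine receptors (3.97 to 12.3 CPM, log2 fold change 1.60, edgeR adjusted p = 0.675). Its SD over mice was 4.75 CPM in Ythdf2 CTL and 3.29 CPM in Ythdf2 CKO mice.

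In aged mice 6 of 45 other effectors (13.3%, background 4.45%) were higher in Ythdf2 CKO mice and 3 lower (background 5.65%), each at an unadjusted p below 0.05, with a median log2 fold change of 0.13. Without mice 121 and 124, 5 were higher at that threshold, and with 1 mouse left out between 2 and 8 were, with 2 without mouse 78 or 94, 3 without mouse 65 or 122, 4 without mouse 81 and 8 without mouse 114, and the other mice left it at 5 or 6. The smallest p values were those of Parp14, an ADP-ribosyltransferase (41.1 to 20.7 CPM, log2 fold change -0.98, edgeR adjusted p = 0.324), Oas1g, a synthetase of 2'-5' oligoadenylates (7.09 to 17.5 CPM, 1.30, edgeR adjusted p = 0.380), and Ifi27 (144 to 228 CPM, 0.67, edgeR adjusted p = 0.398). Of the feedback genes, Socs3 (19.9 to 71.0 CPM, log2 fold change 1.82) and Usp18, which removes ISG15 from proteins and restrains the receptor (26.5 to 55.4 CPM, 1.07), were higher at an unadjusted p below 0.05, with adjusted p values of 0.380 and 0.398. None of the 8 receptor and signal genes was at that threshold, and Ifnar1 had the smallest p (log2 fold change 0.73, edgeR adjusted p = 0.526). In the interaction test Samhd1 (difference -1.11, edgeR p = 0.000676, adjusted p = 0.942) and Parp14 (-1.59, edgeR p = 0.00227, adjusted p = 0.942) had the smallest p of the other effectors in edgeR's quasi-likelihood test.

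Between aged and young Ythdf2 CTL mice the other effectors did not share the direction of the 10. Of 44 tested, 24 had a fold change above 0 (background 55.7%) and 20 below, with a median of 0.08. Of these, 2 were called higher (background 3.33%) and 2 lower (background 4.59%). The called genes were Ifitm2, a family member of Ifitm1 and Ifitm3 (1490 to 919 CPM, log2 fold change -0.69, edgeR adjusted p = 0.0262), Pnpt1, a mitochondrial RNA exonuclease (93.4 to 48.1 CPM, -0.94, edgeR adjusted p = 0.0326), Dtx3l, a ubiquitin ligase (47.5 to 86.1 CPM, 0.86, edgeR adjusted p = 0.0343), and Parp12 (37.3 to 68.4 CPM, 0.88, edgeR adjusted p = 0.0471). Usp18 was called lower among the 3 feedback genes (64.8 to 26.5 CPM, -1.27, edgeR adjusted p = 0.0495), and of the 8 receptor and signal genes 7 had a fold change above 0, with no call and the same background of 55.7%. Jak1 had the smallest p of them (269 to 390 CPM, 0.54, edgeR adjusted p = 0.0575). For these calls too, age and the library identifier cannot be told apart. Over all genes the calls fell from 921 to 64, 129 and 48 without young Ythdf2 CTL mouse 1, 3 or 4. The genes named in this paragraph were not followed singly in those fits.

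The genes whose levels were most like those of the 10 over the 17 mice, by Pearson correlation with the mean of their standardized log2 CPM among 12342 genes, were Trappc2 (r = 0.93), Rpp38 (0.91), Mrpl50 (0.91), Nmd3 (0.90) and Pdcl3 (0.89). Centred on group means, the correlation was 0.88 for Trappc2, which remained first, and between 0.69 and 0.78 for the other 4. Centring moved Nmd3 to rank 19, Rpp38 to 21, Pdcl3 to 40 and Mrpl50 to 85. None of the 5 is on the lists of pathway genes. These correlations share the libraries and the scaling with the 10 transcripts and are given without a test.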

How the data were processed

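HSCs were sorted in samples of 100 cells, and RNA was amplified by SMART-Seq2. The authors aligned reads to GRCm38 (mm10 in the submitters' processing notes) with HISAT2 and assigned them to genes with Rsubread. They deposited raw counts, whole numbers per gene for each library. The annotation, the use of strand and the handling of reads shared by paralogs are not given in the sources used here. Of 34 libraries 33 were used, and libraries A and B were summed per mouse, so that the 17 mice were the replicates. One gene name occurs in 2 rows and 1 row has no counts, neither of them a gene named here.

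Groups came from the sample labels. Low genes were removed with filterByExpr (at least 10 counts, total at least 15). After TMM scaling, the quasi-likelihood test of edgeR 4.0.16 was run in R 4.3.3, with Benjamini-Hochberg adjustment over all genes tested at 0.05. Standard errors were obtained as the ratio of the fold change (log2) to the root of the F statistic. Young mice, aged mice, Ythdf2 CTL mice of both ages and the interaction over all mice were fitted apart. Single transcripts were also compared by 30 two-sided exact permutation tests on log2 CPM (prior count 2) with scipy 1.17.1, without adjustment. Floors cover counting error only, and the libraries have no molecular identifiers. The SDs and standard errors measure the spread between mice. Gene positions and exon lengths come from GENCODE M21 (GRCm38), and promoter windows from RefSeq (GRCm38.p6).

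The genes named are the 10 transcripts, Ythdf2, pathway genes that passed the adjusted threshold or otherwise those of smallest p, at most 3 per list and comparison, and the 5 most alike genes. The transcripts, lists and tests were chosen with earlier results of these data known. Alternatives were DESeq2 1.42.0, its size factors, no filter on low counts, libraries treated as replicates, a likelihood ratio test over libraries, a Y-linked covariate, replicate blocks, the low library included, removal of the mice against their label, and removal of 1 mouse at a time. The counts at an unadjusted p under these alternatives were added after the data were seen. The fits were tested on simulated data. Figures were drawn with matplotlib 3.10.9.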

Additional observations from a re-analysis of the deposited data

Results flagged for a closer look

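In 40 groups of 4 or 5 mice examined (10 transcripts in 4 groups), 4 had a mouse far from the others, where chance gives about 2. Bst2 was lowest in young Ythdf2 CKO mouse 3 (11.24 CPM, next 59.31), Samd9l in young Ythdf2 CTL mouse 2 (84.83 CPM, next 130.1) and Xaf1 in the mouse labelled aged Ythdf2 CTL 124 (21.7 CPM, next 44.92), and Ifitm1 was highest in aged Ythdf2 CKO mouse 94 (782.3 CPM, next 631.8).

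Library B of aged Ythdf2 CTL mouse 99, which was left out for its 187034 counts, held 4 of the transcripts at levels above every aged Ythdf2 CTL mouse. Ifit1 was at 192.0 CPM (36 counts, highest mouse 38.3 CPM), Rsad2 at 246.0 CPM (46 counts, highest mouse 38.1), Ifit3 at 64.2 CPM (12 counts, highest mouse 4.07) and Xaf1 at 58.8 CPM (11 counts, highest mouse 47.7). The most abundant transcripts were far below every aged Ythdf2 CTL mouse, Ifitm1 at 21.4 CPM (4 counts, lowest mouse 659) and Ifitm3 at 69.5 CPM (13 counts, lowest mouse 1111). Samd9l was at 53.5 CPM (10 counts, lowest mouse 60.0), Ifit2 at 32.1 CPM (6 counts, within the range of the mice) and Bst2 at 10.7 CPM (2 counts). Isg15 had 0 counts there, and the floor of 3 counts corresponds to 16.0 CPM. With this library added to its mouse, the log2 fold change of Ifit3 between aged genotypes was 1.93 (p = 0.0728 from edgeR's quasi-likelihood test), and 1 of the 10 transcripts was higher at an unadjusted p below 0.05.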

How the results depend on the processing

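Between genotypes none of the 10 transcripts was called in any alternative, except that the likelihood ratio test over libraries called 1 in young mice, Samd9l (0.62). With 1 mouse left out the number called was 0 at both ages and for the difference between ages, and in aged against young Ythdf2 CTL mice it was between 0 and 3, where the other alternatives kept it at 3. The median log2 fold change of the 10 ranged from 0.20 to 0.60 in young and from 0.19 to 0.41 in aged mice with 1 mouse left out, from -0.03 to 0.34 for the difference between ages, and from -0.96 to -0.72 between ages in Ythdf2 CTL mice.

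Some fold changes between genotypes and differences between ages, none of them called, changed sign, and the cause was not tested. With the Y-linked covariate, Ifit3 was -0.25 and Ifitm3 -0.02 in young mice. Without mice 121 and 124, Ifit1 was -0.26 and Samd9l -0.09 in aged mice, and the difference between ages in Isg15 was -0.15. With every library as a replicate Samd9l was -0.04 in aged mice, as in the likelihood ratio test, and with the library letter as a replicate block it was also -0.04. With 1 mouse left out, Ifitm3 ranged from -0.05 to 0.29 and Bst2 from -0.21 to 0.28 in young mice, Samd9l from -0.11 to 0.41 and Ifit1 from -0.03 to 0.93 in aged mice, and the difference between ages from -0.17 to 0.43 in Rsad2, from -0.22 to 0.13 in Ifitm1 and from -0.34 to 0.24 in Xaf1. Over the same fits the log2 fold changes, aged against young Ythdf2 CTL, ranged from -0.93 to -0.68 in Ifitm1, from -0.81 to -0.63 in Ifitm3 and from -1.48 to -1.07 in Xaf1.

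Counts over all genes moved more. In young mice 20 genes were called, 47 with every library as a replicate, 50 with the library letter as a block, 90 by the likelihood ratio test, 77 by DESeq2, 9 with the Y-linked covariate and between 0 and 18 with 1 mouse left out. In aged mice 0 were called, 130, 40, 420 and 104 in the first 4 of these settings, 40 without mice 121 and 124, and up to 16 with 1 mouse left out. For the difference between ages 0 were called, 3 by the likelihood ratio test, 3 by DESeq2, 15 without mice 121 and 124, and up to 2 with 1 mouse left out. Between ages in Ythdf2 CTL mice 921 were called, 1491, 1573, 1863 and 1845 in the same 4 settings, and between 48 and 1744 with 1 mouse left out.

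Young mice of both genotypes carry the numbers 1 to 4 but are different animals, and deviations of same-numbered mice correlated between -0.04 and 0.05, so the numbers do not pair them. With the mouse number as a replicate block the median was 0.44, none of the 10 and 14 of all genes were called.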

Other observations

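The close paralogs of the Ifit genes were also low. Ifit3b was at 2.14 ± 0.939 CPM in young Ythdf2 CTL and 5.82 ± 3.46 CPM in young Ythdf2 CKO mice (SD, n = 4 each), and it had no counts in any of the 4 aged Ythdf2 CTL mice, against 3.67 ± 5.54 CPM in aged Ythdf2 CKO mice (SD, n = 5), so its fitted fold change in aged mice is not given. Ifit1bl1 was at 4.32 ± 7.37 CPM in young Ythdf2 CTL and 14.5 ± 15.6 CPM in young Ythdf2 CKO mice (log2 fold change 1.78, SE 1.10, edgeR adjusted p = 0.838), and at 1.22 ± 1.10 CPM and 4.62 ± 5.13 CPM in aged Ythdf2 CTL and Ythdf2 CKO mice. These 2 genes were named after their values were seen.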
